A study of Homo sapiens with 39 samples.

Results

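The genes described here make cholesterol and fatty acids or control that synthesis. Of 32 listed genes, 30 had a probe set that names only their own symbol, and these 30 are the genes measured, among 18132 genes tested on the same arrays. CYP51A1 shares its 2 probe sets with other symbols, FDFT1 had no probe set naming it, and both were left out. Each gene was read from its brightest such probe set, by the mean of all 39 arrays. By role the 30 genes fall into 7 enzymes of the mevalonate branch, 9 enzymes of the sterol branch, 6 regulators and carriers, and 8 enzymes of fatty acid synthesis and desaturation. The rule used the mean level to pick a probe set and no difference between groups.

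The arrays measured 7 established human acute myeloid leukemia lines, OCI-AML3, MV-4-11, NOMO-1, OCI-M1, KG-1a, Kasumi-1 and Sig-M5, after 24 h with tamibarotene (SY-1425) or with DMSO alone, called vehicle below. Tamibarotene is a synthetic retinoid that activates the retinoic acid receptor RARα, and it was added at 100 nM for a final 50 nM. There were 21 tamibarotene arrays, 3 from each line, and 18 vehicle arrays, 2 from KG-1a, Kasumi-1 and Sig-M5 and 3 from every other line. Whether replicates came from separate cultures is not given in the labels, and the p-values then measure only the spread between these arrays. Each array measured RNA from a whole culture, so fewer cells expressing a gene and less RNA per cell cannot be told apart.

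Cholesterol is built from acetyl-CoA through mevalonate, isoprenoids and squalene to lanosterol, which a chain of reductases, demethylating enzymes and isomerases turns into cholesterol. The genes of this chain and many genes of fatty acid synthesis are activated by SREBP proteins, the products of SREBF1 and SREBF2. When sterols in the endoplasmic reticulum run low, the escort protein SCAP carries SREBP to the Golgi for cleavage, and the INSIG proteins hold that complex back. SREBP binds sterol regulatory elements, often beside a CCAAT box read by NF-Y and a GC box read by SP1.

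Promoter windows of the genes on which most results below turn, from RefSeq GRCh38.p14, show where these boxes lie. Each window runs from 250 bases before a gene's annotated start to 50 bases after it, is printed from 5′ to 3′ on the gene's strand, and carries in capitals every CCAAT or its reverse complement and every match to the sterol element letters TCACNCCAC on either strand. SREBF2 lies at chr22:41832855-41833154 on the plus strand and is shown because it was the only gene with the sterol element letters. DHCR7 lies at chr11:71448344-71448643 on the minus strand, EBP at chrX:48521558-48521857 on the plus strand, TM7SF2 at chr11:65111622-65111921 on the plus strand, INSIG1 at chr7:155297628-155297927 on the plus strand, and STARD4 at chr5:111512486-111512785 on the minus strand. Another window listed for DHCR7, chr11:71448994-71449293, is not printed and had 0 matches to CCAAT, the GC box or the sterol element letters.
SREBF2: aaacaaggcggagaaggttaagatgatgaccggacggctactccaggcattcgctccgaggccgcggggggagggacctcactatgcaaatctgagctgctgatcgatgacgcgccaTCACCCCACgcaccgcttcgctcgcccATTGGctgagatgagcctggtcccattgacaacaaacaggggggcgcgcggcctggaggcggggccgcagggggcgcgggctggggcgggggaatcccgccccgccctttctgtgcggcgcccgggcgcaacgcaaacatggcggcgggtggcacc
DHCR7: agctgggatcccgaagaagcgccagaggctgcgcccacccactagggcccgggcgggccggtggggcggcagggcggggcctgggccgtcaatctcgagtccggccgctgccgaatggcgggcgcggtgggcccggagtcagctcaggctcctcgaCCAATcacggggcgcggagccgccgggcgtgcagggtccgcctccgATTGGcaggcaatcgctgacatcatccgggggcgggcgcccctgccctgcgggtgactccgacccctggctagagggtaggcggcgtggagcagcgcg
EBP: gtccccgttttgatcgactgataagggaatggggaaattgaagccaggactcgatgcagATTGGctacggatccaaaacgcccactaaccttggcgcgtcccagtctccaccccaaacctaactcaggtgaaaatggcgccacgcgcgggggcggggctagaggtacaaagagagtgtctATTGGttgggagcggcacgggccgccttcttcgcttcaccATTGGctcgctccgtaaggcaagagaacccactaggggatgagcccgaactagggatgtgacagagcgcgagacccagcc
TM7SF2: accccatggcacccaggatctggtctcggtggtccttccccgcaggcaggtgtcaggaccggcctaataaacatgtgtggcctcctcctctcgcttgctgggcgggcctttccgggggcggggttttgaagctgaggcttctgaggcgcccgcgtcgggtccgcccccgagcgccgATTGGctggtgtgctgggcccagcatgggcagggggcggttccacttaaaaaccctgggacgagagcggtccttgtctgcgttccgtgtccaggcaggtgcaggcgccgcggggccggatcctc
INSIG1: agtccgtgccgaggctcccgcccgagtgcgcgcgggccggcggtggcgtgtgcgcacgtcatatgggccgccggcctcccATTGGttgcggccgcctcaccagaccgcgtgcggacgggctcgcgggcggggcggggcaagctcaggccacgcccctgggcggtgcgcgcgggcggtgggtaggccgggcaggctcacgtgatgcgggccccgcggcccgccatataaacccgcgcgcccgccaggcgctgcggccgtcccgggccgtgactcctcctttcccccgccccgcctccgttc
STARD4: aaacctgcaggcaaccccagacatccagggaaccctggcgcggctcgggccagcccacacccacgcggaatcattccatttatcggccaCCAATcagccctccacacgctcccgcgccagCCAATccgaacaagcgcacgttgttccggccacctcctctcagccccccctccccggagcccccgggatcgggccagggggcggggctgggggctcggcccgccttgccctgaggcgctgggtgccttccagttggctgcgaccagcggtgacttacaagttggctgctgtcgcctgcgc

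Over all 38 promoter windows listed for 27 of the 30 genes, CCAAT was found in 25, which is 65.8%, against 34.6% of all 35116 windows in the table. The GC box GGGCGG was found in 34 of the 38 windows, or 89.5%, against 45.0% of all windows. The sterol element letters were found in 1 window, against 1.13% of all windows. Direct repeats of the retinoic acid receptor type with 5 bases between half-sites (DR5) and of the liver X receptor type with 4 bases between them (DR4) were found in 0 of the 38, against 0.0883% and 0.0854% of all windows. These counts describe letters in short windows, and a window without a match says nothing about binding. No window is listed for ACAT2, FASN and SQLE.

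The median log2 value of an array was between 5.01 and 5.17, and arrays of the same group correlated at 0.9787 to 0.9972. Among the 5 myeloid markers MPO, a granule peroxidase, averaged 13.77, 12.90 and 13.87 on the vehicle arrays of Kasumi-1, NOMO-1 and Sig-M5. MPO was lower in MV-4-11, KG-1a, OCI-AML3 and OCI-M1, at 6.52, 4.90, 5.05 and 4.03. LYZ ran from 5.14 in KG-1a to 13.66 in Sig-M5, and PTPRC from 5.11 in Kasumi-1 to 8.57 in Sig-M5. SPI1 lay between 4.85 and 6.89 in every line. CSF3R was highest in Kasumi-1, at 9.38, and lowest in OCI-M1. OCI-M1 carried the red cell genes KLF1 at 11.32, GATA1 at 9.93 and ALAS2 at 9.02. Of 7 markers of adherent or lymphoid cells, EPCAM was at 9.22 in Kasumi-1, and otherwise all 7 stayed at or below 5.50 in every line. The difference between the 3′ and 5′ probe sets of beta-actin, which grows with RNA degradation, was 1.18 on vehicle replicate 2 of Kasumi-1 and 0.81 and 1.89 on the 2 vehicle arrays of Sig-M5, against -0.02 to 0.56 on the other 36 arrays. Calls in these 2 lines that were lost without vehicle replicate 2 of the line, or with the actin difference as a covariate, are named beside the result or after the fatty acid genes.

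Tamibarotene changed few of the 30 genes in most lines. A gene was called changed at a Benjamini-Hochberg adjusted p under 0.05 over all 18132 genes of a limma fit. In OCI-AML3, 7 genes rose and 1 fell, where 5.5% of all genes rose and 6.36% fell. In MV-4-11, 3 rose and 1 fell, where 4.32% of all genes rose and 3.4% fell. Single genes were called in NOMO-1, 1 rising and 0 falling against 2.77% and 0.711% of all genes, and in KG-1a, 0 rising and 1 falling against 1.21% and 1.88%. Kasumi-1 had 0 rising and 2 falling against 0.48% and 2.36% of all genes, and OCI-M1 had 0 in either direction against 0.7% and 0.386%. In OCI-M1, 4 genes had an unadjusted limma p under 0.05, ACACA, DHCR7 and SCD above 0 and LSS below 0. Where a direction had 0 calls in the other lines, the genes at an unadjusted limma p under 0.05 were 0 above 0 in Kasumi-1, 1 above 0 in KG-1a and 1 below 0 in NOMO-1. Sig-M5 stood apart with 2 genes rising and 18 falling, in a line where 8.5% of all genes rose and 18.4% fell.

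Of the 210 pairs of gene and line, 36 were called, 13 rising and 23 falling. TM7SF2, INSIG1 and FADS2 were called up in one line and down in another, 14 genes were called in Sig-M5 and in no other line, and 7 genes were called in no line. These are 10%, 46.7% and 23.3% of the 30 genes, against 3.07%, 17.9% and 61.5% of all genes. The median change of the 30 genes was 0.14 on the log2 scale in OCI-AML3 and -0.35 in Sig-M5, beside medians of -0.03 and -0.10 over all genes in those lines. In the other 5 lines the median of the 30 genes lay between -0.21 in Kasumi-1 and 0.02 in NOMO-1. On the unweighted average over the 7 lines, 3 genes rose and 9 fell, where 6.71% of all genes rose and 12.4% fell. The heat map of changes shows falls in Sig-M5 in every role. Called down there were 4 of 7 mevalonate, 4 of 9 sterol, 3 of 6 regulator and 7 of 8 fatty acid genes, while INSIG2 and SQLE rose. The map also shows the rise of DHCR7 and SQLE in MV-4-11 and OCI-AML3.

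**Figure D1:**
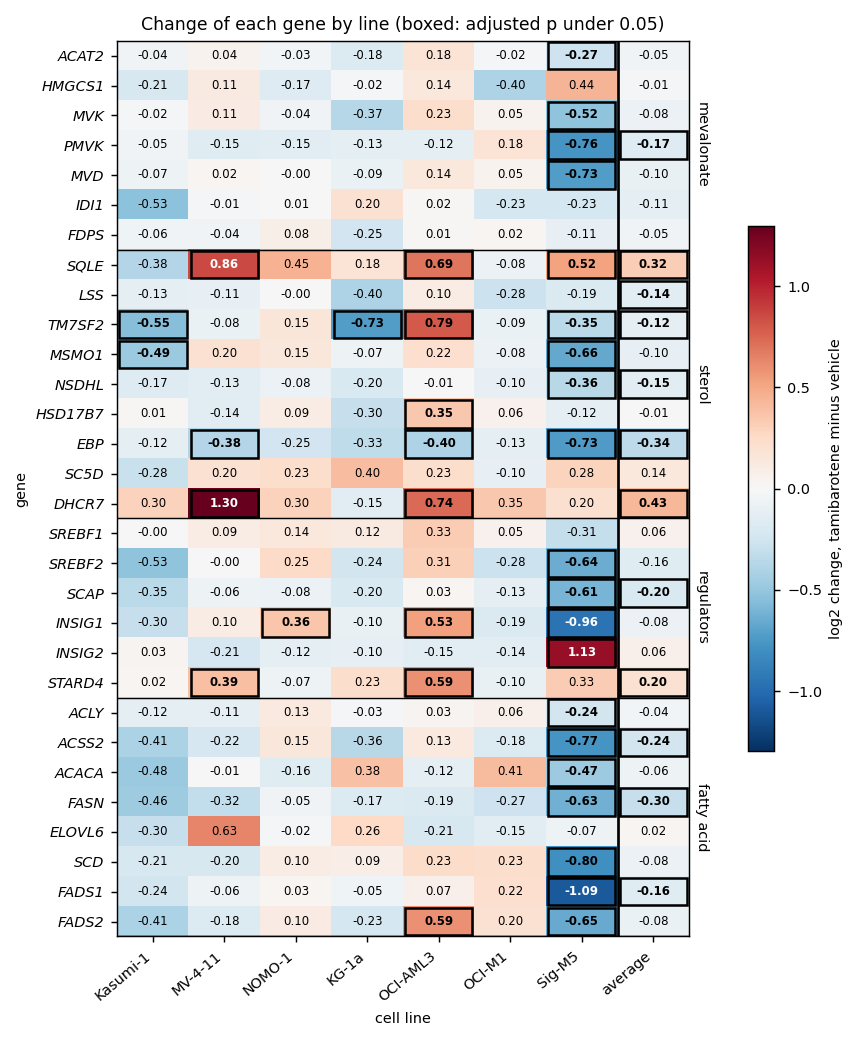
Log2 change, tamibarotene minus vehicle, of each of the 30 genes (rows, by role) in each of 7 lines and on their average (columns). Boxes mark adjusted p under 0.05; DHCR7 in MV-4-11 at 1.30 is the highest value and FADS1 in Sig-M5 at -1.09 the lowest.

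The 7 mevalonate genes were called in Sig-M5 and in no other line, where ACAT2, MVK, PMVK and MVD fell and HMGCS1, IDI1 and FDPS did not pass. PMVK, the kinase that makes mevalonate diphosphate, stood at 8.63, 8.26 and 8.84 on the Sig-M5 tamibarotene arrays, against 9.36 and 9.31 on the vehicle arrays. All 3 treated arrays were below both vehicle arrays, and the change was -0.76 ± 0.15 (limma, SE; adjusted p 0.000337). MVD, which decarboxylates that product to isopentenyl diphosphate, fell by 0.73 ± 0.12 there (adjusted p 1.84e-05), and MVK, mevalonate kinase, by 0.52 ± 0.12 (adjusted p 0.00105). MVK lost its call without vehicle replicate 2 (-0.41, adjusted p 0.0569) and MVD with the actin covariate (-0.48, adjusted p 0.0533). ACAT2, the cytosolic thiolase that opens the pathway, fell by 0.27 ± 0.09 (adjusted p 0.0219), at 9.72, 9.57 and 9.66 with tamibarotene against 10.09 and 9.74 with vehicle. That call was lost with Sig-M5 fitted alone (limma, adjusted p 0.255). The ACAT2 change was -0.45 without vehicle replicate 2 and -0.09 without the other vehicle array.

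PMVK also fell on the average over lines, by 0.17 ± 0.05 (adjusted p 0.0269), with values below 0 in 6 of 7 lines. Its tamibarotene arrays read 9.51, 9.46 and 9.57 in KG-1a, against 9.57 and 9.71 with vehicle, and the groups did not overlap. In the other 5 lines the groups overlapped: 9.17, 9.43 and 9.41 against 9.44 and 9.33 in Kasumi-1, 8.87, 8.94 and 8.86 against 9.12, 8.93 and 9.09 in MV-4-11, and 9.06, 9.09 and 8.76 against 9.12, 9.24 and 9.01 in NOMO-1. PMVK read 9.45, 9.22 and 9.21 with tamibarotene against 9.39, 9.53 and 9.31 with vehicle in OCI-AML3, and 8.54, 8.31 and 8.14 against 8.53, 7.85 and 8.09 in OCI-M1. The average call was lost without vehicle replicate 2 of Kasumi-1, without vehicle replicate 2 of KG-1a, and without Kasumi-1 and Sig-M5 altogether, where the change was -0.08.

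HMGCS1, which makes HMG-CoA, was called in no line, with OCI-M1 at the low end, -0.40, and Sig-M5 at the high end, 0.44. Its arrays spread widely within groups, reading 8.59, 8.42 and 9.24 with tamibarotene against 8.75, 8.40 and 9.60 with vehicle in NOMO-1, and its SE in Sig-M5 was 0.30. The other probe set of HMGCS1 gave -0.77 in Sig-M5, the opposite sign, and -0.89 in Kasumi-1, where the set used gave -0.21. IDI1, which isomerizes isopentenyl diphosphate, changed by -0.53 ± 0.22 in Kasumi-1 without passing (adjusted p 0.184). The other probe set of IDI1 gave -0.02 in Kasumi-1, and 1.10 in Sig-M5, where the set used gave -0.23. FDPS, farnesyl diphosphate synthase, lay between -0.25 and 0.08 in all lines.

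Among the sterol genes, DHCR7, which makes cholesterol from its last precursor, carried the largest rise of the 30 genes. In MV-4-11 it read 7.54, 7.84 and 7.90 on the tamibarotene arrays, against 6.54, 6.22 and 6.64 on the vehicle arrays. Every treated array was above every vehicle array, and the rise of 1.30 ± 0.14 was 2.46-fold (limma, adjusted p 2.07e-08). OCI-AML3 read 8.43, 8.41 and 8.30 with tamibarotene, against 7.58, 7.80 and 7.56 with vehicle, again without overlap, a rise of 0.74 ± 0.14 (adjusted p 0.000236). MV-4-11 had the lowest vehicle level of DHCR7, and only Sig-M5 lay between it and OCI-AML3.

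In 3 further lines DHCR7 was higher on every treated array without passing the test over all genes. Kasumi-1 read 9.93, 10.09 and 10.08 with tamibarotene against 9.68 and 9.78 with vehicle, NOMO-1 9.20, 9.25 and 9.11 against 8.92, 9.08 and 8.67, and OCI-M1 11.08, 11.25 and 11.06 against 10.77, 10.79 and 10.78, with changes of 0.30, 0.30 and 0.35. KG-1a, the line with the highest level, read 10.99, 10.98 and 11.14 with tamibarotene against 11.15 and 11.23 with vehicle, with the treated arrays lower and a change of -0.15 ± 0.15 (adjusted p 0.831). In Sig-M5 the groups overlapped, at 7.21, 7.44 and 7.41 against 7.56 and 6.74. The average rise was 0.43 ± 0.06 (limma, adjusted p 4.34e-07), and the change was above 0 in 6 of 7 lines. In Sig-M5 that sign rested on vehicle replicate 2. The change there was 0.20 with all arrays, -0.20 without vehicle replicate 2 and -0.21 with the actin covariate. The lines differed (limma F test, adjusted p 6.71e-05). Set against the other 6 lines, MV-4-11 was higher by 1.01 ± 0.15 (adjusted p 1.88e-05) and KG-1a differed by -0.68 ± 0.17 (adjusted p 0.00998). DHCR7 has a single probe set, so no other set on the array checks it.

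SQLE, squalene epoxidase, rose in MV-4-11 and OCI-AML3, and in Sig-M5 with a call that rested on both vehicle arrays. Its tamibarotene arrays read 10.30, 10.32 and 10.03 in MV-4-11, against 9.23, 9.37 and 9.48 with vehicle, and 9.93, 9.996 and 10.10 in OCI-AML3, against 9.40, 9.28 and 9.27. Sig-M5, which had the lowest level, read 8.86, 8.99 and 8.67 with tamibarotene against 8.27 and 8.36 with vehicle. None of the 3 lines had overlapping groups, and the rises were 0.86 ± 0.14 (adjusted p 3.25e-05), 0.69 ± 0.14 (adjusted p 0.000473) and 0.52 ± 0.15 (adjusted p 0.0108). Without vehicle replicate 2 the Sig-M5 change was 0.57 (adjusted p 0.0519), without the other vehicle array 0.48 (adjusted p 0.0733), and with the actin covariate 0.81 (adjusted p 0.0132). All 3 other probe sets of SQLE had the same sign in these lines, from 0.76 to 0.94 in MV-4-11 and from 0.61 to 0.73 in OCI-AML3.

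NOMO-1 showed SQLE at 10.43, 10.46 and 10.60 with tamibarotene against 10.01, 10.05 and 10.06 with vehicle, without overlap, a change of 0.45 ± 0.14 that did not pass (adjusted p 0.0661). KG-1a read 10.70, 10.77 and 10.78 against 10.64 and 10.50, also without overlap and with a change of 0.18 ± 0.15. Kasumi-1 read 10.80, 10.13 and 10.48 against 10.96 and 10.73 and OCI-M1 9.82, 10.31 and 10.34 against 9.95, 10.34 and 10.40, and there the groups overlapped. On average SQLE rose by 0.32 ± 0.05 (adjusted p 4.76e-05) and was above 0 in 5 of 7 lines. The response differed between lines (F test, adjusted p 0.000176), with MV-4-11 higher than the other lines by 0.62 ± 0.15 (adjusted p 0.00822) and Kasumi-1 different by -0.81 ± 0.16 (adjusted p 0.0025).

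EBP, the isomerase that moves a double bond in the sterol ring, went the other way and was below 0 in all 7 lines, in Kasumi-1 through 1 array, since its change there was 0.04 without vehicle replicate 2. Sig-M5 read 10.08, 9.75 and 9.94 on the tamibarotene arrays, against 10.66 and 10.66 on the vehicle arrays, a fall of 0.73 ± 0.10 (adjusted p 2.28e-06). OCI-AML3, where EBP was lowest, read 8.24, 8.35 and 8.31 against 8.67, 8.86 and 8.56, and MV-4-11 read 9.88, 9.81 and 9.82 against 10.23, 10.14 and 10.28. In both lines the groups were separate, with falls of 0.40 ± 0.09 (adjusted p 0.00226) and 0.38 ± 0.09 (adjusted p 0.0056).

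The remaining lines gave lower EBP values that did not pass on their own. KG-1a read 10.32, 10.25 and 10.26 with tamibarotene against 10.60 and 10.61 with vehicle and NOMO-1 10.39, 10.27 and 10.26 against 10.61, 10.61 and 10.46, both without overlap. Kasumi-1 read 10.71, 10.89 and 10.72 against 11.05 and 10.74 and OCI-M1 10.41, 10.28 and 10.13 against 10.49, 10.32 and 10.40, with overlap. On average EBP fell by 0.34 ± 0.04, or 1.26-fold (limma, adjusted p 2.46e-08), and its second probe set gave -0.36. The lines differed in size (F test, adjusted p 0.0157), and Sig-M5 differed from the other lines by -0.47 ± 0.11 (adjusted p 0.00232). DHCR7 and EBP, both late steps of the same branch, thus changed in opposite directions in MV-4-11 and OCI-AML3.

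TM7SF2, a sterol reductase, changed in 4 lines and not in one direction. It rose in OCI-AML3, to 8.02, 7.98 and 7.998 with tamibarotene, against 7.20, 7.23 and 7.19 with vehicle, a change of 0.79 ± 0.10 (adjusted p 1.05e-06). KG-1a read 7.40, 7.51 and 7.62 with tamibarotene against 8.16 and 8.32 with vehicle, a fall of 0.73 ± 0.12 (adjusted p 0.000112). In both lines the groups lay well apart, and all 4 other probe sets had the same sign. Kasumi-1, which had the highest level, read 9.79, 9.82 and 9.52 against 10.31 and 10.22, a fall of 0.55 ± 0.12 (limma, adjusted p 0.0117). Sig-M5 read 7.69, 7.31 and 7.43 against 7.80 and 7.85, a fall of 0.35 ± 0.12 (limma, adjusted p 0.0255). The 4 other probe sets gave smaller falls or none, from -0.323 to 0.083 in Kasumi-1 and from -0.295 to 0.017 in Sig-M5. In each of these lines 3 of the 4 shared the sign. Without vehicle replicate 2 of its own line, the Kasumi-1 change was -0.51 (adjusted p 0.264) and the Sig-M5 change -0.32 (adjusted p 0.161).

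In MV-4-11, NOMO-1 and OCI-M1 the TM7SF2 groups overlapped, at 7.99, 7.95 and 7.94 with tamibarotene against 8.11, 7.81 and 8.20 with vehicle, 7.86, 7.95 and 8.01 against 7.83, 7.91 and 7.63, and 7.75, 7.81 and 7.59 against 7.97, 7.72 and 7.74. The test of a difference between lines gave an adjusted p of 1e-07, with OCI-AML3 higher than the other lines by 1.07 ± 0.11 (adjusted p 4.91e-08) and KG-1a different by -0.71 ± 0.13 (adjusted p 0.000349). Its average was -0.12 ± 0.04 (adjusted p 0.0365), a mean of opposed changes that was 0.01 without Kasumi-1 and Sig-M5.

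MSMO1, which oxidizes the methyl groups of lanosterol products, was called down in Kasumi-1 and Sig-M5, and its probe sets disagreed. Kasumi-1 read 9.20, 8.87 and 8.86 with tamibarotene against 9.54 and 9.39 with vehicle, a change of -0.49 ± 0.12 (adjusted p 0.0268), while the 3 other probe sets lay between -0.21 and 0.41. Sig-M5 read 7.13, 7.12 and 7.22 against 7.60 and 8.03, a change of -0.66 ± 0.12 (adjusted p 8.81e-05), while the 3 others lay between 0.44 and 1.86. For that reason no direction is concluded for MSMO1 in these lines. The counts of calls include it by the sign of the probe set used.

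The other sterol enzymes moved less. NSDHL, a sterol dehydrogenase, was below 0 in all 7 lines, at only -0.006 in OCI-AML3. In Kasumi-1 it was -0.019 without vehicle replicate 2. NSDHL fell by 0.36 ± 0.11 in Sig-M5 (limma, adjusted p 0.0189), where the change was -0.31 without vehicle replicate 2. On average it fell by 0.15 ± 0.04 (limma, adjusted p 0.00815). LSS, which closes the sterol rings, fell by 0.14 ± 0.04 on average (limma, adjusted p 0.0161) without a call in any line. Its 2 other probe sets gave -0.25 and 0.07. Neither the NSDHL nor the LSS average call remained without Kasumi-1 and Sig-M5. HSD17B7, a sterol ketoreductase, rose in OCI-AML3 by 0.35 ± 0.12 (adjusted p 0.0428). SC5D, a sterol desaturase, was called in no line, with changes from -0.28 to 0.40. Its other probe sets ran from 0.015 to 1.03 in Sig-M5, where the set used gave 0.285. In Kasumi-1 they ran from -0.58 to -0.035, where the set used gave -0.28.

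**Figure D2:**
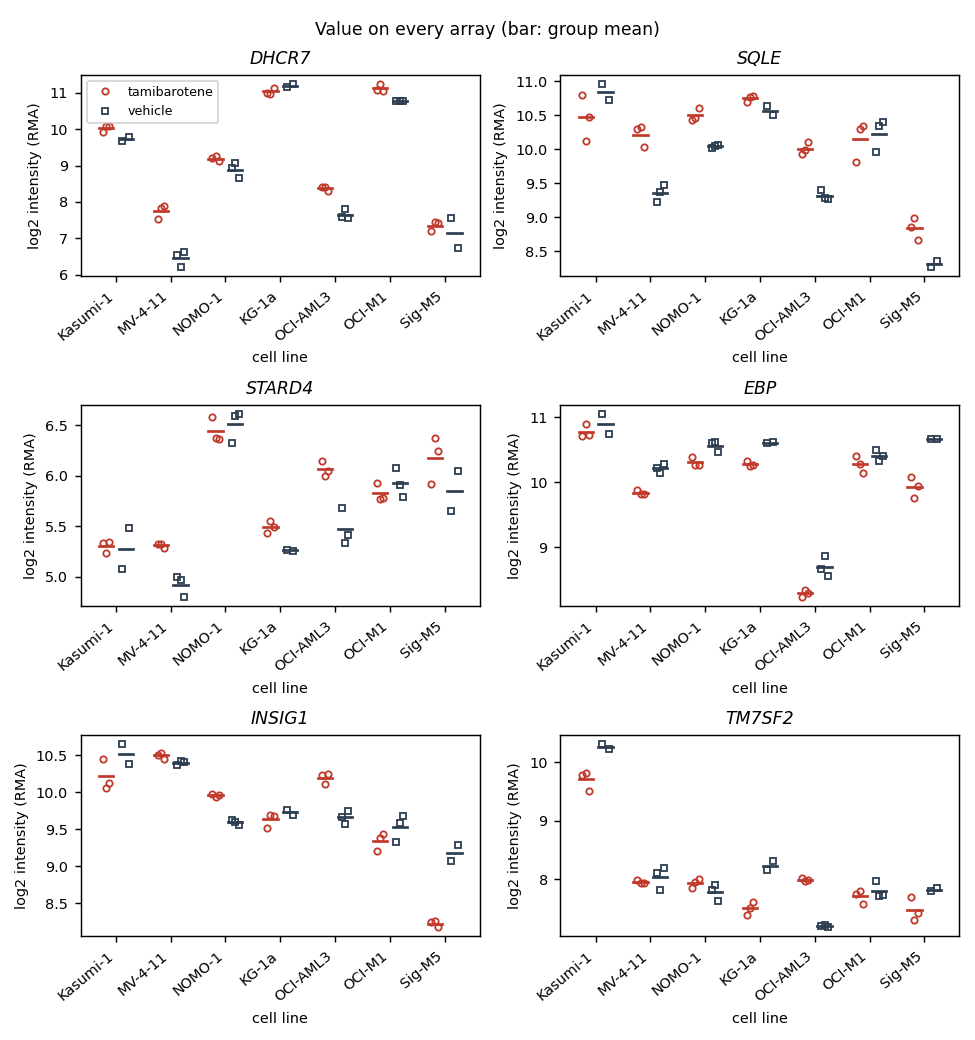
Log2 intensity on every array for DHCR7, SQLE, STARD4, EBP, INSIG1 and TM7SF2, with tamibarotene (circles) left of vehicle (squares) in each of 7 lines and bars at the group means. DHCR7 and SQLE stand higher with tamibarotene in MV-4-11 and OCI-AML3, EBP lower in all 7 lines by mean (0.04 higher in Kasumi-1 without vehicle replicate 2), and TM7SF2 higher in OCI-AML3 and lower in KG-1a.

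Among the regulators, INSIG1, which holds SCAP in the endoplasmic reticulum, gave the smallest p of the 30 genes for a difference between lines (F test, adjusted p 5.01e-08). It rose in OCI-AML3, to 10.24, 10.11 and 10.24 with tamibarotene, against 9.66, 9.58 and 9.75 with vehicle, by 0.53 ± 0.10 (adjusted p 0.000135). NOMO-1 read 9.97, 9.94 and 9.97 against 9.63, 9.60 and 9.56, a rise of 0.36 ± 0.10 (adjusted p 0.0251). Sig-M5 turned the other way, to 8.24, 8.25 and 8.17 with tamibarotene, against 9.07 and 9.29 with vehicle, a fall of 0.96 ± 0.11, or 1.94-fold (adjusted p 5.65e-08). In all 3 lines the groups did not overlap, and both other probe sets shared the sign, though at -0.43 and -0.35 in Sig-M5.

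MV-4-11 read 10.50, 10.53 and 10.45 for INSIG1 with tamibarotene, against 10.37, 10.42 and 10.41 with vehicle, separate groups with a change of 0.10. Kasumi-1, KG-1a and OCI-M1 had overlapping groups, at 10.45, 10.05 and 10.13 against 10.65 and 10.38, 9.52, 9.69 and 9.68 against 9.76 and 9.69, and 9.21, 9.38 and 9.44 against 9.32, 9.58 and 9.67. Set against the other 6 lines, the response was higher by 0.71 ± 0.10 in OCI-AML3 (adjusted p 1.44e-05), higher by 0.52 ± 0.10 in NOMO-1 (adjusted p 0.00329) and different by -1.02 ± 0.11 in Sig-M5 (adjusted p 1.06e-07).

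INSIG2, its relative with the same anchoring role, rose in Sig-M5, where INSIG1 fell. Its tamibarotene arrays there read 6.13, 6.04 and 5.93, against 5.27 and 4.54 with vehicle, a change of 1.13 ± 0.17 (adjusted p 7.85e-06). Both vehicle arrays were below every treated array, and the lower of them is vehicle replicate 2, the array with the largest actin difference. Without that array the change was 0.77 (adjusted p 0.00526), and with the actin difference as a covariate it was 0.43 (adjusted p 0.129). The 2 other probe sets of INSIG2 shared the sign in Sig-M5 with smaller changes, 0.60 and 0.27. In the other 6 lines INSIG2 changes on the probe set used lay between -0.21 and 0.03.

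STARD4, a cytosolic sterol carrier, rose in OCI-AML3 and MV-4-11. OCI-AML3 read 6.14, 5.997 and 6.05 with tamibarotene against 5.68, 5.33 and 5.41 with vehicle, a change of 0.59 ± 0.12 (adjusted p 0.000568), and MV-4-11 read 5.32, 5.32 and 5.28 against 4.99, 4.96 and 4.80, a change of 0.39 ± 0.12 (adjusted p 0.036). Neither line had overlapping groups, and the MV-4-11 call was lost without any one of its own 6 arrays. The vehicle means of both lines lie below the median gene of the arrays, at 5.70.

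In the other lines STARD4 read 5.43, 5.55 and 5.49 with tamibarotene against 5.27 and 5.25 with vehicle in KG-1a, 5.92, 6.38 and 6.24 against 5.66 and 6.05 in Sig-M5 and 5.33, 5.23 and 5.34 against 5.07 and 5.48 in Kasumi-1. NOMO-1 read 6.58, 6.38 and 6.37 against 6.33, 6.59 and 6.61, and OCI-M1 read 5.93, 5.77 and 5.78 against 6.07, 5.91 and 5.79. Of these 5 lines KG-1a alone had separate groups on the probe set used. STARD4 rose by 0.20 ± 0.05 on average (limma, adjusted p 0.00233) and was above 0 in 5 of 7 lines. All 4 other probe sets gave averages above 0, from 0.19 to 0.44. In Sig-M5 these 4 sets gave 0.62 to 1.65, where the set used gave 0.33 and was not called.

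SCAP, the escort of SREBP, fell in Sig-M5 by 0.61 ± 0.17 (adjusted p 0.006), at 8.93, 8.74 and 8.91 with tamibarotene against 9.38 and 9.56 with vehicle. It read 9.10, 9.14 and 9.21 against 9.35 and 9.34 in KG-1a, also without overlap, and 9.07, 9.15 and 9.14 against 9.89 and 9.05 in Kasumi-1, where vehicle replicate 2 alone was high. The Sig-M5 call was lost without vehicle replicate 2 (-0.52, adjusted p 0.105). The other 4 lines overlapped, at 8.70, 8.63 and 8.84 against 8.79, 8.56 and 9.02 in MV-4-11, 8.72, 8.74 and 8.49 against 8.89, 8.88 and 8.41 in NOMO-1, 8.51, 8.67 and 8.56 against 8.57, 8.70 and 8.40 in OCI-AML3 and 8.37, 8.59 and 8.35 against 8.39, 8.71 and 8.59 in OCI-M1. SCAP fell by 0.20 ± 0.06 on average (adjusted p 0.0142), a call lost without Kasumi-1 vehicle replicate 2.

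The transcription factor genes themselves changed little. SREBF2 was called down in Sig-M5, at -0.64 ± 0.23 (adjusted p 0.0393), a value that was -0.41 without vehicle replicate 2 (adjusted p 0.413) and 0.34 with the actin covariate (adjusted p 0.436). SREBF1 was called in no line, with changes from -0.31 in Sig-M5 to 0.33 in OCI-AML3.

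Among the fatty acid genes, 7 of 8 were called down in Sig-M5, where 18.4% of all genes were, and FADS2 in OCI-AML3 was the 1 call in any other line. Of the 7, ACSS2, SCD and FADS1 were called without vehicle replicate 2, and SCD and FADS1 with the actin covariate. FADS1, a front-end fatty acid desaturase, had the largest fall of the 30 genes, at 6.83, 6.14 and 6.67 on the Sig-M5 tamibarotene arrays against 7.88 and 7.38 on the vehicle arrays. Every treated array was below both vehicle arrays, the fall was 1.09 ± 0.13, or 2.12-fold (adjusted p 1.1e-07), and the 2 other probe sets gave -1.52 and -0.83. The largest change of FADS1 elsewhere was 0.24 in size.

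FADS1 in the other lines read 9.55, 9.54 and 9.56 with tamibarotene against 9.81 and 9.77 with vehicle in Kasumi-1, 9.37, 9.45 and 9.40 against 9.45, 9.50 and 9.46 in MV-4-11 and 9.39, 9.42 and 9.50 against 9.19, 9.20 and 9.26 in OCI-M1. Those groups did not overlap, with the treated arrays lower in the first 2 lines and higher in OCI-M1. The groups overlapped in NOMO-1, at 9.46, 9.38 and 9.53 against 9.38, 9.39 and 9.52, in KG-1a, at 9.999, 9.96 and 10.03 against 10.16 and 9.93, and in OCI-AML3, at 9.78, 9.68 and 9.74 against 9.66, 9.73 and 9.61. The F test between lines gave an adjusted p of 1.83e-05, and the average was -0.16 ± 0.05 (adjusted p 0.00999), which was 0.04 without Kasumi-1 and Sig-M5.

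SCD, which puts the first double bond into saturated fatty acids, read 8.49, 8.40 and 8.42 with tamibarotene against 9.07 and 9.40 with vehicle in Sig-M5, a change of -0.80 ± 0.10 (adjusted p 5.75e-07). Its 3 other probe sets ran from -0.33 to 0.58 there, and 2 of them shared the sign. Separate groups were also seen in OCI-AML3, at 10.51, 10.37 and 10.45 against 10.27, 10.19 and 10.17, in Kasumi-1, at 11.21, 11.12 and 11.21 against 11.48 and 11.29, and in MV-4-11, at 10.26, 10.36 and 10.38 against 10.50, 10.61 and 10.50, with the treated arrays higher in OCI-AML3 and lower in the other 2 lines. Those changes did not pass. NOMO-1 read 10.63, 10.43 and 10.53 against 10.35, 10.39 and 10.57, KG-1a 11.08, 11.18 and 11.10 against 11.10 and 10.96, and OCI-M1 11.42, 11.74 and 11.65 against 11.22, 11.46 and 11.44, with overlap. The SCD response differed between lines (F test, adjusted p 7.23e-06).

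FADS2, the partner desaturase of FADS1, rose in OCI-AML3 and fell in Sig-M5. OCI-AML3 read 7.83, 8.003 and 7.89 with tamibarotene against 7.02, 7.47 and 7.45 with vehicle, a rise of 0.59 ± 0.15 (adjusted p 0.00632), and its 3 other probe sets gave 0.42 to 0.79. In Sig-M5 the change was -0.65 ± 0.17 (adjusted p 0.00389), with groups at 6.76, 6.61 and 6.73 against 7.29 and 7.42. Without Sig-M5 vehicle replicate 2 it was -0.59 (adjusted p 0.0664).

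ACSS2, which makes acetyl-CoA from acetate, read 6.75, 6.72 and 6.05 with tamibarotene against 7.31 and 7.24 with vehicle in Sig-M5, a change of -0.77 ± 0.21 (adjusted p 0.00548). Its other probe set gave 0.35, the opposite sign. The groups overlapped in the 6 other lines, at 7.84, 7.66 and 7.52 against 8.44 and 7.74 in Kasumi-1, 7.50, 7.38 and 7.50 against 7.68, 7.48 and 7.87 in MV-4-11 and 8.40, 8.53 and 8.24 against 8.30, 8.44 and 7.97 in NOMO-1. KG-1a read 5.03, 5.28 and 5.70 against 5.40 and 5.99, OCI-AML3 7.04, 7.04 and 6.98 against 6.80, 7.04 and 6.84, and OCI-M1 8.15, 8.49 and 8.23 against 8.29, 8.54 and 8.59. The average was -0.24 ± 0.07 (adjusted p 0.0206), a call lost under 6 of 47 alternatives, among them leaving out Kasumi-1 vehicle replicate 2 or KG-1a vehicle replicate 2.

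FASN, fatty acid synthase, was below 0 in all 7 lines (0.06 in Kasumi-1 without vehicle replicate 2) and fell by 0.30 ± 0.07 on average (adjusted p 0.00288). In Sig-M5 it read 8.57, 8.67 and 8.70 with tamibarotene against 9.33 and 9.22 with vehicle, a fall of 0.63 ± 0.20 (adjusted p 0.0206, and 0.0797 without vehicle replicate 2), and in KG-1a 7.61, 7.56 and 7.79 against 7.82 and 7.84, both without overlap. Kasumi-1 read 7.89, 7.86 and 7.79 against 8.83 and 7.79, where vehicle replicate 2 alone was high. The remaining lines overlapped, at 7.59, 7.59 and 7.76 against 7.92, 7.74 and 8.25 in MV-4-11, 7.41, 7.16 and 7.10 against 7.31, 7.50 and 6.995 in NOMO-1, 7.58, 7.98 and 7.89 against 7.86, 8.11 and 8.04 in OCI-AML3 and 7.10, 7.27 and 7.06 against 7.01, 7.76 and 7.47 in OCI-M1. FASN has 1 probe set, and its average call was lost without Kasumi-1 and Sig-M5 and with the actin covariate.

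ACACA, which makes malonyl-CoA, was called down in Sig-M5 at -0.47 ± 0.16 (adjusted p 0.0254), while its 2 other probe sets gave -0.04 and 0.44. That call was lost without vehicle replicate 2 (-0.36, adjusted p 0.269) and with the actin covariate (-0.14, adjusted p 0.792). In OCI-M1 ACACA changed by 0.41 ± 0.14 without passing (adjusted p 0.292). ACLY, which makes acetyl-CoA from citrate, was called down in Sig-M5 at -0.24 ± 0.09 (adjusted p 0.034), while its other probe set gave 0.47 and its change without vehicle replicate 2 was -0.03 (adjusted p 0.889). ELOVL6, a fatty acid elongase, was called in no line and lay near the floor of the array in MV-4-11, at 3.40, 3.997 and 2.99 with tamibarotene against 2.36, 3.06 and 3.07 with vehicle.

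A test of whether the response differed between lines called 15 of the 30 genes, where 27.4% of all genes were called. Set against the mean of the other 6 lines, 13 of the 30 responses differed in Sig-M5 (22.9% of all genes), 8 in OCI-AML3 (7.83%), 3 in Kasumi-1 (5.36%), 3 in OCI-M1 (3.5%), 2 in MV-4-11 (4.79%), 2 in KG-1a (4.9%) and 1 in NOMO-1 (2.61%). All 8 in OCI-AML3 were higher than the mean of the other 6 lines, Sig-M5 and Kasumi-1 among them. They were FADS2, HSD17B7, INSIG1, MSMO1, MVK, SCD, STARD4 and TM7SF2. MSMO1, MVK and SCD were not called in OCI-AML3 itself. SCD changed by 0.235 there and 0.228 in OCI-M1, and MSMO1 by 0.22 there and 0.196 in MV-4-11. The comparisons of each line with the other 6 were not repeated without single arrays or lines. Of the 13 in Sig-M5, 12 were lower and INSIG2 was higher. Over the 7 lines, the median correlation between the changes of 2 fatty acid genes was 0.747, and that between any 2 of the 30 genes 0.431. These correlations are over 7 points that share the Sig-M5 values, and they are given as a description.

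The Sig-M5 counts depended on its vehicle arrays. The actin difference was 0.81 and 1.89 on those 2 arrays, against 0.31 to 0.34 on the treated arrays of that line, and its part in the results was not tested beyond the values that follow. Of the 18 falls, 9 remained without vehicle replicate 2, where 10.5% of all genes fell and 4.43% rose, and the 2 rises were INSIG2 and STARD4 in place of INSIG2 and SQLE. With the actin difference as a covariate, 6 fell and SQLE alone rose, where 5.97% of all genes fell and 3.43% rose. The median of the 30 changes was -0.37 without that array and -0.18 with the covariate, beside -0.35 with all arrays.

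EBP, FADS1, INSIG1 and PMVK were called down in Sig-M5 under every alternative tried. Their changes were -0.74, -1.34, -0.84 and -0.78 without vehicle replicate 2 and -0.66, -1.30, -0.64 and -0.90 with the covariate. SCD and ACAT2 were also called in both settings, though the ACAT2 call was lost with Sig-M5 fitted alone and its change was -0.09 without the other vehicle array. MSMO1, ACSS2 and MVD were called without vehicle replicate 2 and not with the covariate, and MVK, NSDHL, TM7SF2, SREBF2, SCAP, ACLY, ACACA, FASN and FADS2 in neither. FASN moved to -0.08 with the covariate, SCAP to -0.08 and ACLY to 0.07, none of them called. Both Kasumi-1 calls were lost without vehicle replicate 2 of that line, whose actin difference was 1.18 against 0.20 to 0.22 on the treated arrays, and its median moved to -0.06.

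**Figure D3:**
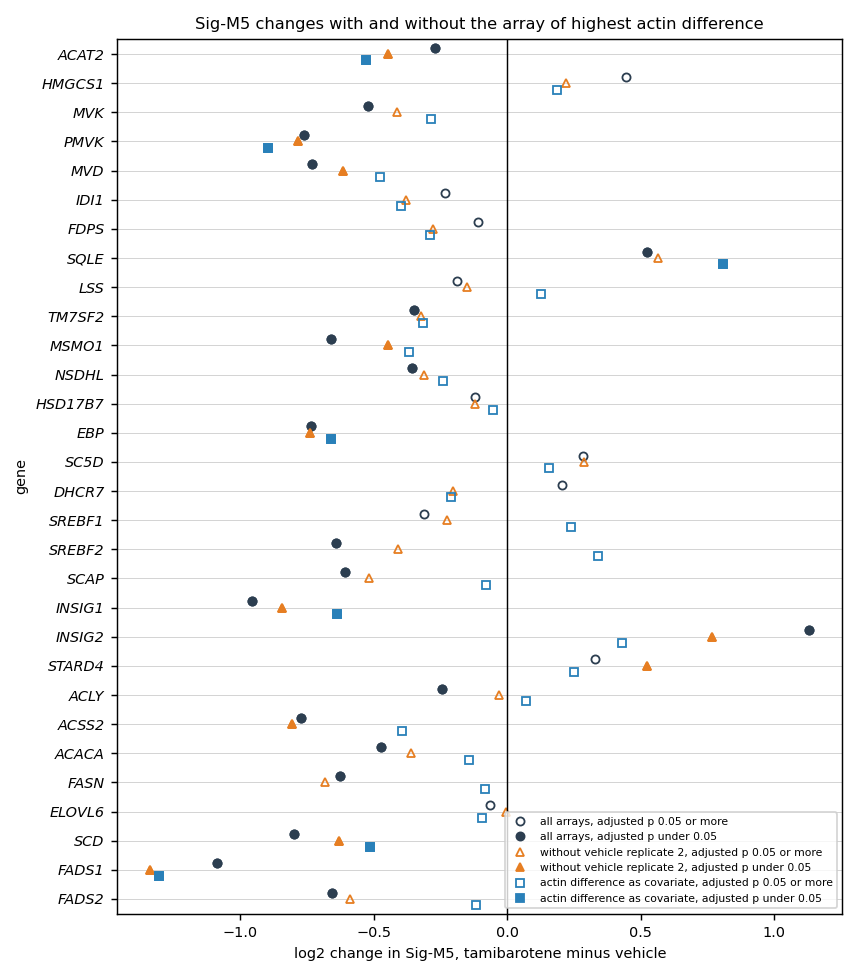
Log2 change in Sig-M5, tamibarotene minus vehicle, of each gene with all arrays (circles), without vehicle replicate 2 (triangles) and with the actin difference as a covariate (squares). Filled symbols mark adjusted p under 0.05; 18 circles, 9 triangles and 6 squares are filled below 0.

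Other genes of lipid and sterol handling were listed beside the 30, and 36 of them were measured. They rose and fell as 7 and 1 in MV-4-11, 8 and 2 in OCI-AML3, 3 and 1 in NOMO-1, 11 and 8 in Sig-M5, 1 and 0 in KG-1a and OCI-M1, and 0 and 5 in Kasumi-1. The shares of all genes that rose and fell were 4.32% and 3.4% in MV-4-11, 5.5% and 6.36% in OCI-AML3, 2.77% and 0.711% in NOMO-1, and 8.5% and 18.4% in Sig-M5. They were 1.21% and 1.88% in KG-1a, 0.7% and 0.386% in OCI-M1, and 0.48% and 2.36% in Kasumi-1. SOAT1, which esterifies cholesterol for storage, rose by 1.69 ± 0.15 in MV-4-11 (adjusted p 6.7e-10), 1.73 ± 0.15 in OCI-AML3 (adjusted p 4.77e-10) and 0.78 ± 0.15 in NOMO-1 (adjusted p 0.00159). NPC2, which hands cholesterol out of lysosomes, rose by 1.34 ± 0.10, 0.75 ± 0.10 and 0.71 ± 0.10 in the same lines (adjusted p 1.61e-11, 2.11e-06 and 2.3e-05). In Sig-M5 SOAT1 rose by 0.87 ± 0.17 (adjusted p 0.000268), a call lost with the actin covariate. The rises in MV-4-11, OCI-AML3 and NOMO-1 were larger than those of SQLE in each of these 3 lines, without a test of that difference.

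ACSL1, which activates long-chain fatty acids, rose by 1.43 ± 0.12 in MV-4-11 (adjusted p 1.32e-10), 1.20 ± 0.13 in Sig-M5 (adjusted p 5.6e-08) and 0.56 ± 0.12 in OCI-M1 (adjusted p 0.00982). In Sig-M5 ABCA1, a cholesterol exporter, rose by 1.59 ± 0.14 (adjusted p 5.82e-10) and LIPA, the lysosomal acid lipase, by 1.29 ± 0.09 (adjusted p 1.08e-12). ME1, malic enzyme, which supplies NADPH, fell by 0.79 ± 0.15 in NOMO-1 (adjusted p 0.00152), 0.74 ± 0.15 in OCI-AML3 (adjusted p 0.000856) and 0.99 ± 0.17 in Kasumi-1 (adjusted p 0.00302). Kasumi-1 also showed falls of LPIN1 by 0.62 ± 0.16 (adjusted p 0.0323) and OSBP by 0.58 ± 0.13 (adjusted p 0.019), and all 3 of its falls named here were lost without vehicle replicate 2. RNF139 in KG-1a rose by 0.73 ± 0.17 (adjusted p 0.0103), a call lost without KG-1a vehicle replicate 2.

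On the vehicle arrays the lines differed widely in these genes. All 30 genes differed between the 7 vehicle groups (limma F test), where 78.6% of all genes did, and the median range between the highest and lowest line was 1.66 for the 30 genes and 1.04 for all genes. DHCR7 ran from 11.19 ± 0.06 in KG-1a and 10.78 ± 0.01 in OCI-M1 to 7.15 ± 0.58 in Sig-M5 and 6.46 ± 0.22 in MV-4-11 (mean ± SD of 2 or 3 vehicle arrays), a range of 4.73, larger than that of 96.2% of all genes. Kasumi-1 at 9.73 ± 0.07, NOMO-1 at 8.89 ± 0.21 and OCI-AML3 at 7.64 ± 0.13 lay between, and no 2 neighbours in that order overlapped.

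**Figure D4:**
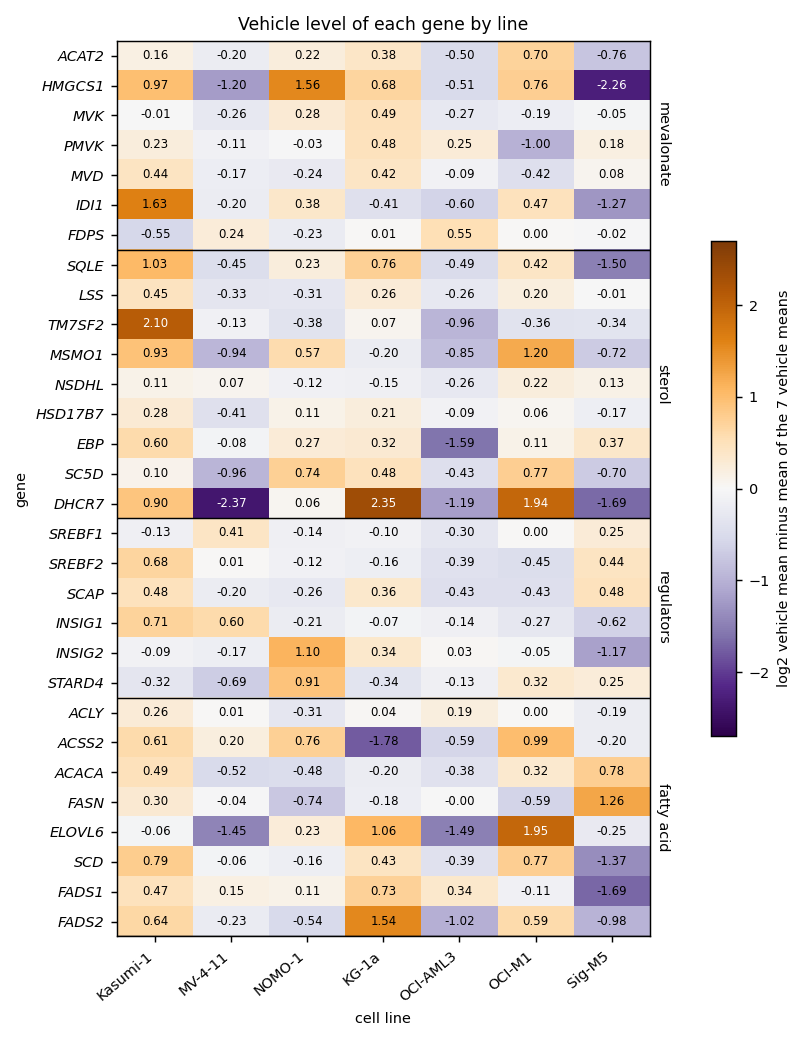
Vehicle level of each of the 30 genes in each of 7 lines, as the log2 group mean minus the mean of the 7 vehicle means. DHCR7 stands at 2.35 in KG-1a and -2.37 in MV-4-11, HMGCS1 at -2.26 in Sig-M5, and TM7SF2 at 2.10 in Kasumi-1.

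HMGCS1 was highest in NOMO-1, at 8.75, 8.40 and 9.60, and lowest in Sig-M5, at 5.32 and 4.87, a range of 3.82. Its other probe set gave another order, with Kasumi-1 highest at 8.33, MV-4-11 lowest at 5.93 and Sig-M5 at 6.70. On the probe set used, Kasumi-1 at 8.22 and 8.45, OCI-M1 at 7.90, 8.13 and 8.34 and KG-1a at 7.93 and 8.15 overlapped from neighbour to neighbour, with NOMO-1 overlapping Kasumi-1, and so did OCI-AML3 at 6.86, 6.87 and 6.83 and MV-4-11 at 5.50, 6.84 and 6.13. ELOVL6 was highest in OCI-M1, at 6.35, 6.11 and 6.23, and lowest in OCI-AML3, at 2.56, 3.05 and 2.76, a level it shared with MV-4-11 at 2.36, 3.06 and 3.07. All arrays of these 2 lines are below the lower quartile of all genes, 4.07, so the range of 3.44 rests on values near the floor. ELOVL6 in KG-1a read 5.31 and 5.36, in NOMO-1 4.37, 3.82 and 5.35, in Kasumi-1 4.25 and 4.18 and in Sig-M5 3.97 and 4.09.

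TM7SF2 was highest in Kasumi-1, at 10.26 ± 0.06, and lowest in OCI-AML3, at 7.21 ± 0.02; the 5 lines between, from 7.79 to 8.24, overlapped from neighbour to neighbour. IDI1 was also highest in Kasumi-1, at 9.96 and 10.05, and lowest in Sig-M5, at 7.26 and 6.96, a range of 2.90. OCI-M1 at 8.83, 8.76 and 8.95, NOMO-1 at 8.65, 8.38 and 9.23, MV-4-11 at 7.98, 8.56 and 7.98, KG-1a at 7.94 and 7.99 and OCI-AML3 at 7.80, 7.47 and 8.07 overlapped from neighbour to neighbour. ACSS2 was lowest in KG-1a, at 5.70 ± 0.42, and highest in OCI-M1, at 8.47 ± 0.16, which overlapped NOMO-1. FADS2 was highest in KG-1a, at 9.88 ± 0.03, and lowest in OCI-AML3, at 7.31 ± 0.25, which overlapped Sig-M5 at 7.36 ± 0.09, and 2 of its 3 other probe sets had Sig-M5 lowest.

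SQLE ran from 10.85 ± 0.17 in Kasumi-1 to 8.32 ± 0.06 in Sig-M5, a range of 2.53, and MV-4-11 at 9.36 ± 0.12 and OCI-AML3 at 9.32 ± 0.07 overlapped. Of its 3 other probe sets 2 gave the same highest and lowest lines, and 1 had OCI-M1 highest and MV-4-11 lowest. In FADS2 vehicle arrays, OCI-M1 read 8.81, 8.96 and 9.01, Kasumi-1 9.47 and 8.48, MV-4-11 8.08, 7.95 and 8.28, NOMO-1 7.89, 7.87 and 7.63 and KG-1a 9.86 and 9.90. The smallest range was that of NSDHL, at 0.48.

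Set against the mean of the other 6 lines, Kasumi-1 had 20 genes higher and 2 lower on vehicle arrays, where 21.9% of all genes were higher and 19.5% lower. TM7SF2 was higher there by 2.45 ± 0.10 (adjusted p 1.94e-19) and IDI1 by 1.90 ± 0.18 (adjusted p 2.06e-10). Without vehicle replicate 2 of Kasumi-1 the count of higher genes was 11. KG-1a had 16 higher and 3 lower (21.5% and 20.1% of all genes), with DHCR7 higher by 2.75 ± 0.13 (adjusted p 6.85e-18) and ACSS2 different by -2.08 ± 0.17 (adjusted p 7.74e-12). OCI-M1 had 15 higher and 8 lower (22.5% and 30.4%), among them DHCR7 higher by 2.27 ± 0.11 (adjusted p 6.97e-18) and PMVK different by -1.17 ± 0.11 (adjusted p 6.67e-11).

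OCI-AML3 had 4 genes higher and 20 lower (18.2% and 18.3% of all genes), including 8 of the 9 sterol genes. EBP differed there by -1.86 ± 0.07 (adjusted p 9.86e-20) and DHCR7 by -1.39 ± 0.11 (adjusted p 2.81e-12). MV-4-11 had 3 higher and 13 lower (21.2% and 18.7%), with DHCR7 different by -2.77 ± 0.11 (adjusted p 1.32e-19). Sig-M5 had 6 higher and 14 lower (28.9% and 28.1%), with HMGCS1 different by -2.64 ± 0.25 (adjusted p 1.62e-10) and FASN higher by 1.48 ± 0.17 (adjusted p 6.68e-09). NOMO-1 had 11 higher and 11 lower (19.3% and 27.5%), with HMGCS1 higher by 1.82 ± 0.21 (adjusted p 1.34e-08).

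Across the 7 vehicle means, pairs of sterol genes had a median correlation of 0.557 and pairs of the 30 genes one of 0.187. SQLE and SCD had the highest value, 0.931, and INSIG2 and FASN the lowest, -0.877. Each of these correlations rests on 7 points, 1 per line, and is a description of these lines.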

How the data were processed

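RNA from 7 leukemia lines was measured on 39 expression arrays with 49395 probe sets. The deposited values are log2 intensities. Per the submitters' processing notes the authors used affy and RMA, with no version given. Whether the 39 arrays were normalized together is not given in the sources used here. Depth has no counterpart on arrays, and the number of arrays limits the precision.

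Probe sets were named from the platform annotation, and for each of 18132 genes the probe set naming only that symbol with the highest mean over all 39 arrays was used. One limma 3.58.1 fit (R 4.3.3, with the data.table package at 1.17.8) held a mean for each of 14 groups of line and arm, with 25 residual degrees of freedom. Changes are tamibarotene minus vehicle on the log2 scale with the standard error of the fit, and adjusted p-values are Benjamini-Hochberg over all genes. Moderated F tests compared the 7 responses and the 7 vehicle means, and each line was also set against the mean of the other 6. The scripts were tested on simulated data with known changes. Figures were drawn with Python 3.11.15, pandas 2.3.3 and matplotlib 3.10.9. Motifs were searched on both strands of the RefSeq promoter windows.

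Values on every array and full statistics were given for up to 6 called genes per line with the largest change, the 8 called on average with the largest change, the 6 with the smallest p for a difference between lines, and the 8 with the largest range of vehicle means. The other lipid genes were named up to 3 per line by the same order. The 30 genes, the lists and these rules were chosen with earlier results of these data known.

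Alternatives were quantile normalization on top, the mean of all probe sets, leaving out genes below a mean of 5, array weights, the actin difference as a covariate, the replicate number as a block, each line fitted alone, leaving out Kasumi-1 and Sig-M5, and leaving out each array. Leaving out vehicle replicate 2 of both Kasumi-1 and Sig-M5 together, and the F test without these lines, were added after seeing the data. Deviations of arrays with the same number in the 2 arms correlated above 0.1 in every pair of OCI-M1, at 0.1181 to 0.3715, and the block left its counts of calls at 0. In each other line at least 1 pair was under 0.1, though other pairs were well above it in some lines. The pairs gave 0.0995, 0.6696 and 0.5013 in MV-4-11, 0.0105, 0.5112 and 0.5717 in NOMO-1, and -0.0425, 0.3526 and 0.4606 in OCI-AML3. The array of the same number was the best match in 2 of 3 pairs, 3 of 3 and 2 of 3 in these lines. The main fit of group means did not use the replicate numbers.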

Additional observations from a re-analysis of the deposited data

Results flagged for a closer look

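The response to tamibarotene differed between the 7 lines for 15 of the 30 genes by the moderated F test, with adjusted p-values over all genes. Among the regulators INSIG1 gave 5.01e-08, INSIG2 0.000461 and STARD4 0.0123. Among the sterol genes TM7SF2 gave 1e-07, DHCR7 6.71e-05, SQLE 0.000176, MSMO1 0.000188 and EBP 0.0157. The probe sets of MSMO1 disagreed in Kasumi-1 and Sig-M5. Among the fatty acid genes SCD gave 7.23e-06, FADS1 1.83e-05, FADS2 0.00127 and ACACA 0.00444. Among the mevalonate genes MVD gave 0.00211, MVK 0.00415 and PMVK 0.0332. DHCR7, FADS2, INSIG1, MVK, SQLE, STARD4 and TM7SF2 passed this test under every alternative tried, the one without Kasumi-1 and Sig-M5 included.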

How the results depend on the processing

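On the average over lines DHCR7, EBP, SQLE and STARD4 were called in the same direction under all 47 alternatives. The 9 falls on average became 4 with the actin difference as a covariate, 1 without Kasumi-1 and Sig-M5, 3 without vehicle replicate 2 of both lines, and 3 to 12 over all settings that leave out arrays, 4 of them without Kasumi-1 vehicle replicate 2. The 15 differences between lines became 8 without Kasumi-1 and Sig-M5.

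The 2 falls in Kasumi-1 became 1 with quantile normalization on top, 0 with the mean of probe sets, array weights, the covariate, the line fitted alone or both vehicle arrays left out, 7 with the replicate block, and 0 to 9 with single arrays left out, 9 of them without vehicle replicate 3. In MV-4-11 the 3 rises became 5 and the 1 fall 3 with array weights, and the fall was lost with the line fitted alone (0). In NOMO-1 the 1 rise became 2 with array weights or the block, 0 with the line fitted alone, and 0 to 1 with single arrays left out. In KG-1a the 0 rises became 2 with array weights and 1 with the block, and the 1 fall became 2 with the mean of probe sets, the covariate, the block or the line alone, 3 without dim genes and 6 with array weights. The 7 rises in OCI-AML3 became 14 with array weights, whose estimate stopped before converging. In Sig-M5 the 2 rises became 4 with the mean of probe sets, 1 with array weights or the covariate, and 1 to 3 with single arrays left out, and the 18 falls became 10, 11 and 6 in these settings and 9 to 15 with single arrays left out. The cause was not tested beyond this.

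Of the vehicle counts, the 20 higher genes of Kasumi-1 became 12 without vehicle replicate 2 of both lines and 11 to 21 with arrays left out, its 2 lower genes 1 with array weights, the 3 higher genes of MV-4-11 5 with the mean of probe sets, the 3 lower genes of KG-1a 5 with quantile normalization, 6 with array weights and 1 to 4 with arrays left out (1 without vehicle replicate 2), and the 6 higher genes of Sig-M5 11 with quantile normalization.

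Signs turned for ACLY in Sig-M5 (0.112 with the mean of probe sets, 0.069 with the covariate), MSMO1 in Sig-M5 (0.526, limma adjusted p 0.000334, with the mean of probe sets), SREBF2 and DHDDS in Sig-M5 (0.338 and 0.004 with the covariate), DHDDS on average (0.007 with the covariate), and, without Kasumi-1 and Sig-M5, ABCA1 (-0.093), FADS1 (0.04) and TM7SF2 (0.01) on average. Over the genes named or counted, 2641 of 3011 values kept direction and call, 361 lost the call and 9 changed sign. The median over all genes in Sig-M5 was -0.113 with quantile normalization and -0.13 without dim genes.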
